A study of Homo sapiens with 12 samples.

Results

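The stretch described here begins directly after the last listed codon of a firefly luciferase reporter and holds the listed 3′ UTR region together with the 2000 nt that follow it on the plasmid map. It comprises 2051 positions on the map of the nonoptimal reporter (3′ UTR region 6774 to 6824, following stretch 6825 to 8824) and 2050 on the map of the optimal reporter (3′ UTR region 6009 to 6058, following stretch 6059 to 8058), 4101 of the 27036 positions of the 3 maps up to their last aligned base. The positions were chosen by their place on the maps and not by any measured value. They are given below as distances, where 1 is the first nucleotide of the 3′ UTR region and -1 is the last nucleotide of the listed reading frame. These are plasmid maps, so no genome build applies, and nothing else is listed after the 3′ UTR region on either map.

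The cells were HEK293T, an established line from human embryonic kidney with the genotype given as WT. They were co-transfected by lipofection with a firefly and a Renilla luciferase plasmid and harvested 24 hours later. The firefly plasmid was SM-nonopt FLuc-GFP in one arm and SM-opt FLuc-GFP in the other, and both arms received the Renilla plasmid and were treated briefly with cycloheximide before lysis. No untransfected cells were part of the comparison. Each arm gave 3 RNA-seq libraries, made after removal of rRNA and DNase digestion, and 3 Ribo-seq libraries of ribosome footprints cut from a gel at 27 to 30 nt. Expression was from transfected plasmid. Whether the replicates came from separate cultures is not given, so the spread between them may be technical.

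The 3′ UTR is the part of an mRNA between the stop codon and the poly(A) tail, and it is transcribed but normally not translated. At the stop codon, release factors free the finished protein and the ribosome is then taken off the mRNA, so that footprints usually end where the reading frame ends while RNA coverage continues to the site of cleavage and polyadenylation. Footprints beyond a stop codon are looked for as a sign of readthrough, reinitiation or ribosomes that were not recycled. Both firefly map names contain the term ms2, which usually denotes RNA stem-loops bound by a phage coat protein and is often built as an array of repeats, but the region list does not say where on the map it lies.

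Depth was sufficient for RNA and thin for footprints. Between 1975 and 18478 RNA-seq alignments per library overlapped the positions, and between 12 and 41 Ribo-seq alignments did. None of the alignments over these positions, in any of the 12 libraries, came from a read that also aligned to the Renilla plasmid (0 of 1975 in the smallest RNA-seq library, which allows a share of up to 0.152%). Elsewhere on the firefly maps, outside the reading frame and these positions, from 186 to 7269 alignments per library were shared in that way, so the stretch can be assigned to the firefly plasmid.

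RNA-seq reads covered the map past the coding region in every library, and after a narrow stretch of very low depth the level rose again to that of the reading frame. All 2051 nonoptimal and all 2050 optimal positions were covered by sense RNA-seq reads in each of the 6 RNA-seq libraries. Relative to the mean sense depth over the reading frame of the same library, the 3′ UTR region stood at 65.9%, 73.5% and 82.7% in nonoptimal replicates 1 to 3. Optimal replicates 1 to 3 stood at 78.1%, 74.3% and 78.5%. The groups overlapped, and they differed by 0.06 on the log2 scale (SE 0.098, exact two-sided permutation p = 0.6, adjusted p = 0.65). With 151 nt reads and a 3′ UTR region of 51 or 50 nt, every read counted there also covered its surroundings.

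Over the 2000 nt after the 3′ UTR region, mean sense depth was 67.3%, 80.5% and 64.4% of the reading frame for nonoptimal replicates 1 to 3. For optimal replicates 1 to 3 it was 84.6%, 82.1% and 81.8%. The optimal values all lay above the nonoptimal ones, and they also lay closer together. The nonoptimal mean was 70.7% ± 8.60 (SD, n = 3) and the optimal mean 82.8% ± 1.53 (SD, n = 3). On the log2 scale they differed by 0.23 (SE 0.0998), which is 1.18-fold (exact permutation p = 0.1, the smallest that 3 against 3 values allow; adjusted p = 0.186). With GFP, the segment next to the stretch, as the reference the libraries of the reporters overlapped, with a difference of 0.15 (exact permutation p = 0.3). With median in place of mean depth they overlapped too, with 0.19 (exact permutation p = 0.3).

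**Figure D1:**
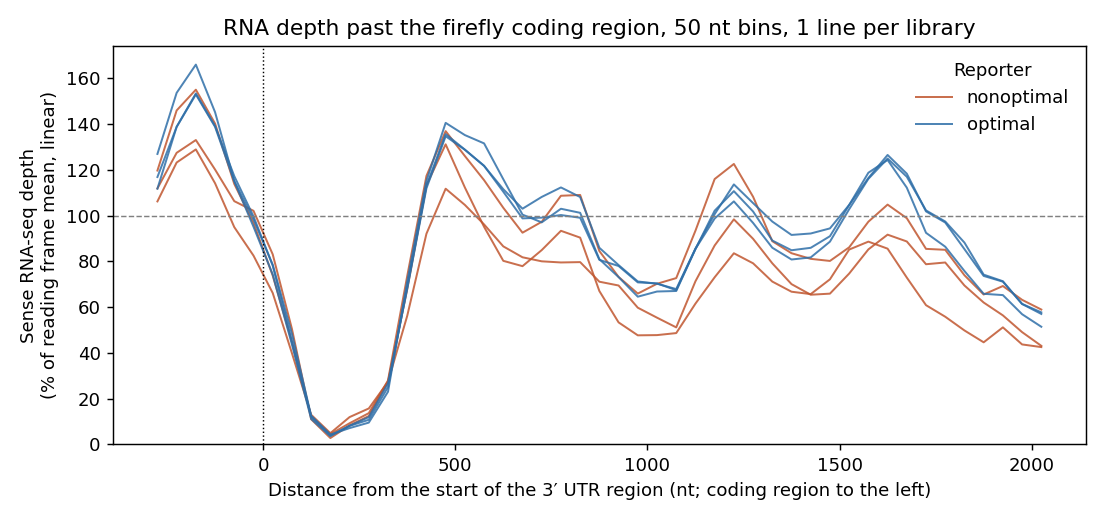
Sense RNA-seq depth in bins of 50 nt as a percentage of the mean depth over the reading frame of the same library (vertical axis) against the distance from the start of the 3′ UTR region in nt (horizontal axis), with 1 line for each of the 6 RNA-seq libraries. All lines fall to between 2.71% and 4.85% at distances 151 to 200 and rise to between 112% and 141% at distances 451 to 500.

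The fall in depth began inside the coding region and was sharp. Each read covers 151 nt, so depth at a position also depends on whether reads that extend into neighbouring bins align. Where the RNA itself changed was not tested. In bins of 50 nt the optimal reporter fell from 157.5% ± 7.42 (SD, n = 3) of the reading frame mean at distances -200 to -151 to 97.7% ± 2.33 (SD, n = 3) in the last 50 nt of the frame and 45.6% ± 2.37 (SD, n = 3) at distances 51 to 100. The nonoptimal reporter fell over the same bins from 139% ± 14.1 (SD, n = 3) to 93.8% ± 10.1 (SD, n = 3) and 45.0% ± 5.32 (SD, n = 3). Both reached their lowest bin at distances 151 to 200, at 3.99% ± 1.13 (SD, n = 3) for nonoptimal and 3.85% ± 0.342 (SD, n = 3) for optimal libraries. Depth then rose to 126.6% ± 13.2 (SD, n = 3) and 137% ± 3.14 (SD, n = 3) at distances 451 to 500, the highest bin past the coding region in both group means.

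Single positions showed the same shape. The lowest position lay at distances 168, 169 and 148 in the nonoptimal libraries and at 167, 170 and 167 in the optimal libraries, with 1.45% to 3.17% of the reading frame mean. In raw depth this was 10, 9 and 3 reads in the nonoptimal and 39, 26 and 29 reads in the optimal libraries. The number of positions below 10% of the reading frame mean ranged from 72 to 110 in the nonoptimal and from 118 to 168 in the optimal libraries. At the other end, 142, 573 and 162 nonoptimal positions and 789, 661 and 662 optimal positions stood above the reading frame mean. No such counts are given here for the reading frame, and neighbouring positions share reads. The counts are therefore a description without a background, and a difference between the reporters was not tested on them. Across the 2050 distances that both maps share, the mean profiles of the reporters had a Pearson correlation of 0.978, a description of profiles whose neighbouring positions share reads.

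Read pairs were also looked at around the low stretch, taken here as distances 101 to 350 after its depth had been seen. The pairs come from the same reads as that depth, so they are a description and not separate support. Among mate 2 alignments that started in the last 100 nt of the reading frame, 74.3% ± 7.34 (SD, n = 6) had no mate 1 anywhere on the map, against 4.88% ± 0.956 (SD, n = 6) of those that started at distances -3001 to -501. By library this was 86.0%, 74.3% and 63.2% for the nonoptimal reporter. For the optimal reporter it was 76.0%, 75.0% and 71.5%. In optimal replicate 1, for example, 316 of 416 such reads had no partner (95% Wilson interval 71.6% to 79.8%). On the far side, among mate 1 alignments that ended at distances 401 to 500, 77.0%, 78.7% and 82.4% in the nonoptimal and 88.0%, 84.2% and 85.5% in the optimal replicates had no mate 2 on the map.

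The loss of partners had a direction. Mates whose partner would lie away from the low stretch were not affected to that degree: 3.93% ± 2.27 (SD, n = 6) of mate 1 alignments ending in the last 100 nt of the frame and 6.67% ± 2.19 (SD, n = 6) of mate 2 alignments starting at distances 401 to 500 lacked one. In all 6 libraries the shares of the mates facing the low stretch lay above those of the mates facing away. Why these partners were missing, and whether the reads on both sides of the low stretch came from 1 RNA, was not tested.

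**Figure D2:**
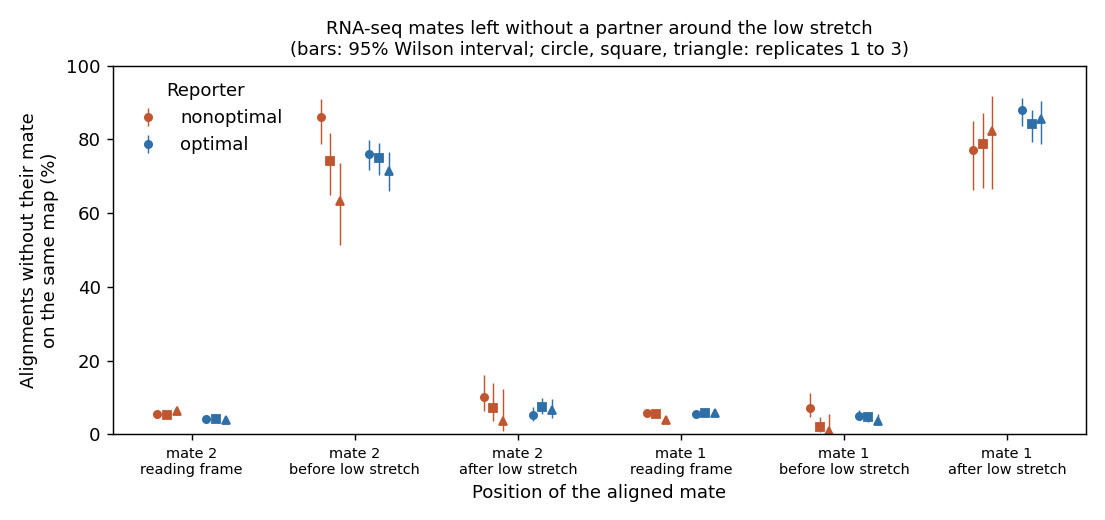
Percentage of RNA-seq alignments whose mate was not aligned to the same map (vertical axis) by mate and position (horizontal axis), for each library with its 95% Wilson interval. Mate 2 before the low stretch and mate 1 after it lie between 63.2% and 88.0%, and all other sets lie at or below 10.1%.

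Pairs with both mates aligned and at most 1000 nt apart spanned a median of 223 to 237 nt. The end of the 3′ UTR region was crossed by 116, 86 and 64 such pairs in the nonoptimal and by 461, 460 and 276 in the optimal libraries. Those counts were between 32.9% and 45.4% of the median number of pairs that crossed a position of the reading frame. The whole low stretch of 250 nt was bridged by 3, 1 and 0 pairs in the nonoptimal and by 8, 13 and 3 pairs in the optimal libraries. Stretches of equal length in the reading frame were bridged by a median of 47.5, 32.5 and 16 pairs in the nonoptimal and 171.5, 169 and 97 pairs in the optimal libraries. In each library the low stretch was bridged by fewer pairs than any of the 24 such stretches, whose lowest counts were 29, 20 and 8 in the nonoptimal and 100, 102 and 56 in the optimal libraries. The stretch was chosen for its low depth, and mates of 151 nt in bridging pairs would add to that depth. The low count of bridging pairs thus follows in part from the choice.

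The level was uneven, and over the 10 windows past the coding region the highest and the lowest were at the same distances in both reporters. In windows of 200 nt, the lowest level in both reporters lay at distances 201 to 400. It was 29.2% ± 1.68 (SD, n = 3) of the reading frame mean for nonoptimal and 28.2% ± 0.499 (SD, n = 3) for optimal libraries. The highest lay at distances 401 to 600, at 112.7% ± 11.4 (SD, n = 3) and 126.6% ± 3.52 (SD, n = 3). Depth then dipped at distances 1001 to 1200 in both, to 70.7% ± 15.7 (SD, n = 3) and 80.6% ± 0.396 (SD, n = 3), and rose again before the last window, distances 1801 to 2000, which was the lowest past the low stretch at 58.1% ± 10.4 (SD, n = 3) and 70.9% ± 4.29 (SD, n = 3).

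Differences between the reporters were not confined to the windows past the coding region. Taken over all 26 windows, from distance -3200 to 2000, the groups did not overlap in 53.8% (14 windows), with the optimal level higher in 30.8% and lower in 23.1%. Of the 10 windows past the coding region, 4 had groups that did not overlap, all with the optimal level higher. In the coding region the groups did not overlap in 10 of 16 windows, 4 with the optimal level higher and 6 with it lower. The count past the coding region is thus near the background. The median log2 difference was 0.20 over these 10 windows and 0.13 over all 26. With GFP as the reference, 10 of the 26 windows had groups that did not overlap, 3 with the optimal level higher and 7 with it lower, and past the coding region 2 were higher and 1 was lower. None of the 26 had an adjusted p below 0.186 (exact permutation, adjusted over the 26 windows).

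The largest differences lay in the last 600 nt. At distances 1601 to 1800 the level was 84.7%, 93.6% and 68.8% in the nonoptimal and 110.9%, 110.4% and 103.9% in the optimal libraries, 0.41 apart on the log2 scale (SE 0.13, exact permutation p = 0.1). At distances 1401 to 1600 it was 72.8%, 86.2% and 77.9% against 101.9%, 97.3% and 100.1%, which is 0.34 apart on that scale (SE 0.073, exact permutation p = 0.1). In both windows all optimal libraries exceeded all nonoptimal ones. The mean was lower in the optimal reporter in 1 of the 10 windows, at distances 201 to 400, most of which lie in the low stretch, with a log2 value of -0.05 and overlapping groups (exact permutation p = 0.4; with GFP as the reference the groups did not overlap there).

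**Figure D3:**
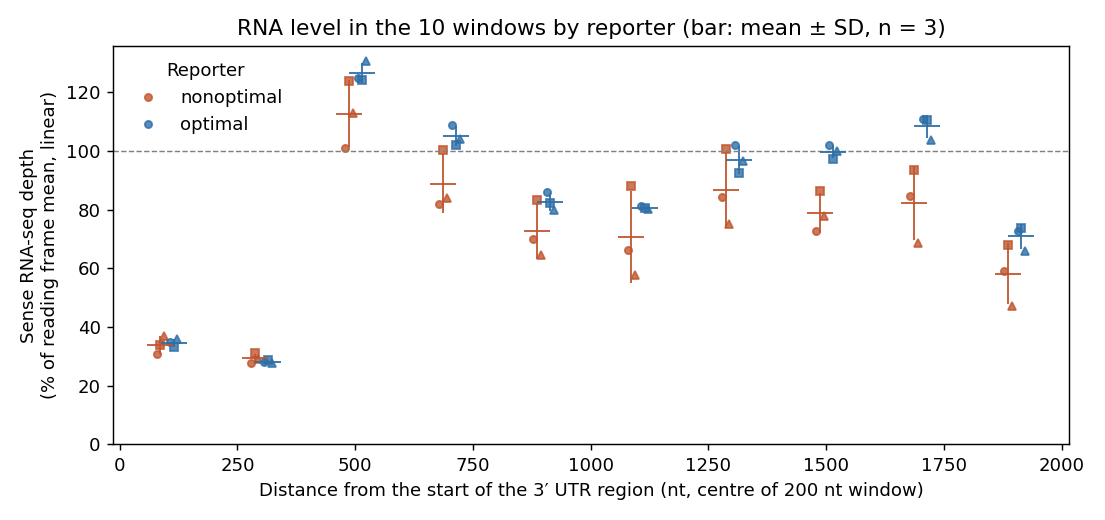
Sense RNA-seq depth as a percentage of the reading frame mean (vertical axis) in the 10 windows of 200 nt past the coding region (horizontal axis, nt), with a marker for each library and a bar for the mean ± SD of 3. Both reporters lie near 30% in the first 2 windows, and the optimal markers lie above all nonoptimal ones in 4 of the later windows.

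RNA-seq depth went on unevenly past the 2000 nt. At distances 2001 to 2200, which include the last of the positions, the nonoptimal reporter stood at 41.9% ± 6.19 (SD, n = 3) of the reading frame. The optimal one stood at 48.8% ± 3.41 (SD, n = 3). At distances 2201 to 2400 depth was higher again, at 66.5% ± 8.72 (SD, n = 3) and 75.7% ± 4.69 (SD, n = 3). It fell to 36.6% ± 4.05 (SD, n = 3) and 17.6% ± 1.83 (SD, n = 3) at distances 2601 to 2800 and to 17.4% ± 2.89 (SD, n = 3) and 8.15% ± 1.51 (SD, n = 3) at distances 2801 to 3000. These windows were looked at after the others and were not tested. Reads that also aligned to the Renilla plasmid were not removed from them. In each RNA-seq library, 5259 to 7269 alignments outside the reading frame and the positions were such reads. How many of these lay in the windows was not examined, so their depth is not assigned to the firefly plasmid.

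Against Renilla, the level past the coding region was higher in the optimal arm. Relative to mean sense depth over the Renilla coding region, the 2000 nt reached 17.7%, 20.5% and 19.2% in the nonoptimal and 88.2%, 74.6% and 76.3% in the optimal libraries. The optimal libraries were 4.16-fold higher, 2.06 on the log2 scale (SE 0.097), and the groups did not overlap (exact permutation p = 0.1, adjusted p = 0.186). For the 3′ UTR region they were 3.69-fold higher, 1.89 on the log2 scale (SE 0.17, exact permutation p = 0.1, adjusted p = 0.186), again with groups that did not overlap. Relative to the reading frame of the same library, the reporters differed by 1.18-fold over the 2000 nt and 1.04-fold over the 3′ UTR region. Most of the difference against Renilla was thus shared by the reading frame and is not particular to these positions.

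The Renilla 3′ UTR region, the most similar stretch elsewhere in the series, carried more RNA relative to its own coding region. It stood at 130.1% ± 2.41 (SD, n = 6) of Renilla coding depth. Set against this within each library, the firefly 3′ UTR region was at 0.579 times the Renilla value on average, with libraries from 0.523 to 0.636, and lower in 6 of 6 (exact two-sided sign-flip test, p = 0.0312, the smallest that 6 libraries allow; adjusted p = 0.186). Reads of 151 nt over the firefly region of 51 or 50 nt also cover its surroundings and can reach the low stretch. The ratio is thus not of the 3′ UTR region alone, and what lowered it was not tested. Within the firefly maps, the level of the 2000 nt relative to the 3′ UTR region was above 1 in 5 of 6 libraries and 0.778 in nonoptimal replicate 3 (mean log2 0.02, SE 0.078, exact sign-flip p = 0.875).

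The RNA was almost all of the sense strand. Antisense alignments made up 1.17%, 1.36% and 1.47% of RNA-seq alignments over the positions in the nonoptimal and 0.850%, 0.820% and 0.934% in the optimal libraries. The nonoptimal libraries were all higher, and the optimal share minus the nonoptimal one was -0.464 percentage points (SE 0.0949, exact permutation p = 0.1, adjusted p = 0.186), from 29 to 54 antisense alignments each in the nonoptimal and 101 to 157 in the optimal libraries. No antisense share of the reading frame or of Renilla is given here. Whether the difference is particular to these positions was therefore not tested.

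No distance held more than 1.44% of the fragment 3′ ends within the stretch. The outer end of mate 1 marks the 3′ end of a sequenced fragment, and 4999 such ends fell there in the nonoptimal and 22765 in the optimal libraries. The 3 most used distances in the nonoptimal reporter were 1411 with 1.44% of these ends, 569 with 1.34% and 683 with 0.960%. In the optimal reporter they were 1728 with 1.23%, 1410 with 1.17% and 682 with 1.16%. These sites were chosen by their counts and are a description. A fragment end is where the RNA was broken for the library, and an end followed by a poly(A) tail would not align to the map.

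The preferred ends of the maps lay 1 nt apart. At distance 1411 the nonoptimal libraries had 38, 24 and 10 ends, and at distance 1410 the optimal libraries had 102, 94 and 70. The optimal libraries had only 20 ends in all at distance 1411. Fragment 5′ ends followed suit: the most used distance was 1124 in the nonoptimal and 1123 in the optimal reporter. Across 2030 positions the Pearson correlation of the 3′ end counts of the reporters was 0.279 at equal distance and 0.941 when nonoptimal positions were taken 1 nt farther, and for 5′ ends it was 0.271 and 0.893. The region list gives GFP 724 nt on the optimal map and 723 nt on the nonoptimal map, so the listed frame differs by 1 nt as well, and the 3′ UTR region of the optimal map is shorter by as much. The 3′ UTR region of the optimal map thus starts 1 nt later relative to the RNA than that of the nonoptimal map, and at equal distance different nucleotides are compared. With the optimal distances taken 1 nt earlier, the groups still did not overlap in 53.8% of windows.

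**Figure D4:**
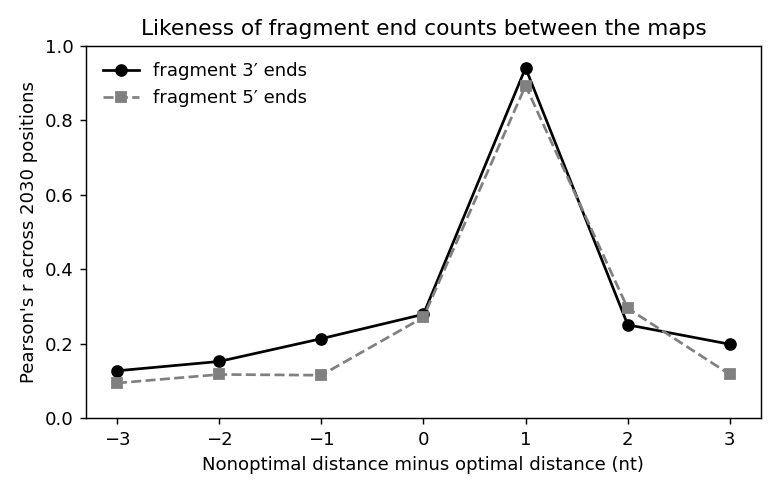
Pearson correlation of RNA fragment end counts between the reporters across 2030 positions (vertical axis) against the difference in distance at which the maps were matched, in nt (horizontal axis). Both curves, for 3′ ends and for 5′ ends, peak at 1 nt, with 0.941 and 0.893, and are at or below 0.295 at all other offsets shown.

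Ribosome footprints fell away at the end of the coding region. Sense footprints of 27 to 30 nt that started within the reading frame numbered 815, 1332 and 282 in the nonoptimal and 687, 781 and 567 in the optimal libraries. In the 3′ UTR region 0 footprints started in any of the 6 Ribo-seq libraries, where the density of the reading frame would have given 4.25 to 20.1. In the last 200 nt of the frame 29, 44 and 9 started in the nonoptimal and 15, 26 and 21 in the optimal libraries. That density was below the reading frame mean in each library, so fewer than these would be awaited from the density just before the stop codon. A count of 0 in this short region allows a density of up to 14.9% of the reading frame in nonoptimal replicate 2 and up to 70.5% in nonoptimal replicate 3, for counting error only.

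The footprints that did overlap the 3′ UTR region had all started inside the frame. There were 0, 4 and 1 of them in the nonoptimal and 3, 3 and 1 in the optimal libraries. Their 5′ ends lay between distances -24 and -16, in the optimal libraries at -18, -17 or -16. A ribosome at the stop codon covers nucleotides on both sides of it, so these reads reach into the 3′ UTR region from the last codons. Counted as depth, with 0.5 alignments added to each count, the 3′ UTR region stood at 4.08%, 7.56% and 14.99% of reading frame density in the nonoptimal and 15.5%, 14.4% and 10.6% in the optimal libraries, and the groups overlapped (log2 difference 0.78, SE 0.57, exact permutation p = 0.3, adjusted p = 0.39). Counting only alignments wholly inside the region the log2 difference was 0.028, and counting 5′ ends it was 0.032, both from counts of 0 with 0.5 added. Divided by RNA they overlapped as well (log2 difference 0.72, SE 0.48, exact permutation p = 0.2, adjusted p = 0.289).

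In the 2000 nt after the 3′ UTR region 5, 6 and 5 sense footprints started in the nonoptimal and 3, 2 and 0 in the optimal libraries, 21 in all. At reading frame density there would have been from 166.8 to 787.9 per library. The density was 1.04%, 0.761% and 2.997% of that over the reading frame in the nonoptimal and 0.738%, 0.433% and 0 in the optimal libraries. Pooled, it was 1.11% in the nonoptimal (exact 95% interval 0.635% to 1.81%) and 0.415% in the optimal reporter (0.135% to 0.971%), intervals that cover counting error only and overlap. Footprints covered 283 of the 2051 nonoptimal and 151 of the 2050 optimal positions at least once, while 98.9% and 98.8% of the reading frame positions were covered.

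Over the 2000 nt, RNA and footprints thus differed in their level relative to the reading frame. In depth with 0.5 alignments added, footprint density over the 2000 nt relative to the reading frame was lower than RNA depth relative to the reading frame in 6 of 6 pairs of libraries, with ratios from 0.00182 to 0.0503 (mean log2 -6.64, SE 0.64, exact sign-flip p = 0.0312, adjusted p = 0.186; this test was added after the values were seen). The ratio was 1.68%, 1.01% and 5.03% in the nonoptimal and 1.01%, 0.654% and 0.182% in the optimal libraries. Nonoptimal replicate 2 and optimal replicate 1 lay close together, and the groups did not overlap by a narrow margin (log2 difference -2.05, SE 1.0, exact permutation p = 0.1, adjusted p = 0.186). With 1 alignment added in place of 0.5 the groups overlapped and the difference was -1.68 (exact permutation p = 0.2), with GFP as the reference they overlapped at -1.91 (exact permutation p = 0.2), and without optimal replicate 3, the library with 0 footprints, the difference was -1.33. Before division by RNA the groups overlapped (log2 difference -1.81, SE 0.96, exact permutation p = 0.2, adjusted p = 0.289). A difference between the reporters was not established at these counts.

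**Figure D5:**
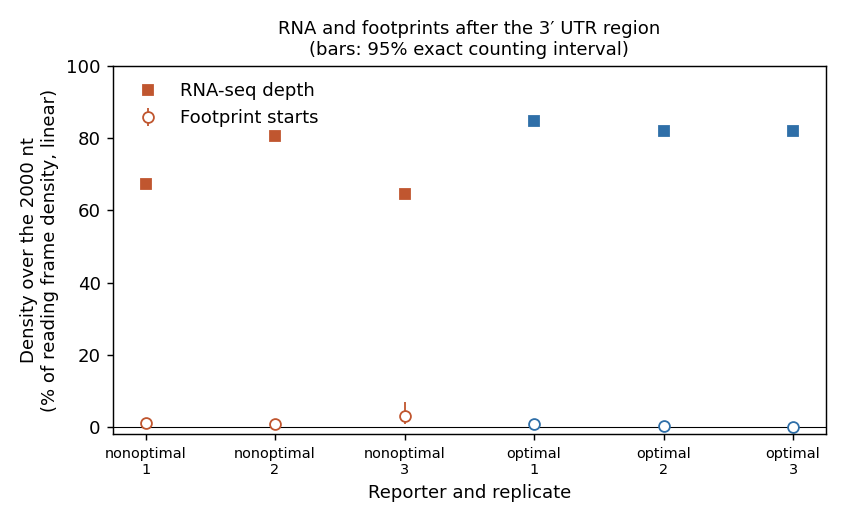
Density over the 2000 nt after the 3′ UTR region as a percentage of the density over the reading frame (vertical axis) for each reporter and replicate (horizontal axis); squares are sense RNA-seq depth and open circles are starts of sense footprints of 27 to 30 nt with exact 95% counting intervals. RNA lies between 64.4% and 84.6% and footprints lie at or below 2.997%.

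The few footprints past the stop codon did not show the frame of the coding region clearly. In the reading frame 72.1% of nonoptimal and 77.5% of optimal footprints started on codon position 2. Of the 21 past the stop codon, 10 did, a share of 47.6% (95% Wilson interval 28.3% to 67.6%), with 7 on position 1 and 4 on position 3. An interval this wide includes an even spread over the positions. In the nonoptimal reporter 3 of 16 started at distance 1022, 1 in each library, and single ones started at 1019 and 1021. No other distance was used by more than 1 footprint. In the optimal reporter each of the 5 had a distance of its own, from 627 to 1852.

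Most Ribo-seq alignments over the positions were not of footprint size. Sense footprints made up 5 of 25, 10 of 40 and 6 of 12 alignments there in the nonoptimal and 6 of 41, 5 of 29 and 1 of 35 in the optimal libraries. The antisense share, at most 1.47% in RNA-seq, was 32.0%, 42.5% and 33.3% in the nonoptimal and 82.9%, 75.9% and 82.9% in the optimal Ribo-seq libraries. Antisense alignments of 27 to 30 nt numbered 0, 3 and 0 in the nonoptimal and 0 in each optimal library. A depth summed over all lengths and both strands would therefore not be a measure of ribosomes here.

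For the Renilla 3′ UTR region, footprint depth was 12.6% ± 4.94 (SD, n = 6) of that over its coding region. The firefly value relative to it was 0.506, 0.730 and 0.696 in the nonoptimal and 1.04, 1.49 and 0.960 in the optimal libraries. Over the 6 libraries the difference was within the spread (mean log2 -0.23, SE 0.22, exact sign-flip p = 0.406, adjusted p = 0.480). That mean joins reporters whose values did not overlap, a difference that was not tested. Nonoptimal replicate 1 had 0 footprints over the firefly region, so its value rests on the 0.5 alignments added.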

How the data were processed

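RNA-seq and Ribo-seq alignments to plasmid maps were analysed for 12 libraries, 3 in each of 4 groups taken from the labels. The authors deposited 1 or more lines for each alignment with its start, end and strand and its overlap with a region list, so the values are positions on the maps and no expression unit. The submitters' processing notes name UMI-tools, Bowtie 1.2.2, SAMtools 1.12, STAR 2.6.0a, Salmon 1.6.0 and bedtools without roles, and they give hg38. Trimming and filters are not given in the sources used here.

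Lines equal in the first 6 columns were merged and summary lines dropped. Region starts and ends were taken as 1-based and inclusive, and the entry 3_UTR_zip was taken as the 3′ UTR region of the firefly maps. RNA-seq strand was that of mate 2. RNA level was mean sense depth. Footprints were sense alignments of 27 to 30 nt, counted by their 5′ ends or as summed depth divided by their mean length with 0.5 alignments added. A group difference was called when the groups did not overlap. Tests were exact two-sided permutation tests (3 against 3, smallest p 0.1) or exact sign-flip tests over 6 libraries (smallest p 0.0312), on log2 values except for shares, with Benjamini-Hochberg adjustment over 13 single values and separately over 26 windows. Intervals cover counting error only.

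The positions, windows and alternatives were chosen with earlier results of these data known. Named windows were those with the highest and lowest level in each reporter and the largest differences, and named positions the most used fragment ends and footprint starts. The window test was tested on simulated data with counting error only and no further spread between replicates. Groups did not overlap in 15.2% of windows simulated without a difference, and in 100% of those with a 2-fold difference in either direction. Ribo-seq and RNA-seq libraries were joined by reporter and replicate number. Python 3.11.15, numpy 2.4.6, pandas 2.3.3, scipy 1.17.1 and matplotlib 3.10.9 were used. Sequences of the maps were not used here.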

Additional observations from a re-analysis of the deposited data

Results flagged for a closer look

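Ribo-seq alignments outside the footprint length lay over the positions in numbers above the 3 counts that a count of 0 allows. The design has no untransfected sample to set them against. Antisense alignments of 139 nt, the longest present, numbered 8, 2 and 4 in the nonoptimal libraries (14 in all) and 34, 12 and 14 in the optimal libraries (60 in all). They made up 8 of 8, 2 of 17 and 4 of 4 antisense alignments there in the nonoptimal and 34 of 34, 12 of 22 and 14 of 29 in the optimal libraries. With the 12-base identifier that each Ribo-seq read name carries they come to 151 nt, the read length of the RNA-seq libraries, and they lie on the strand of RNA-seq mate 1. Pooled over the libraries, such alignments started past the coding region 54.8% as often as within it in the optimal arm (57 against 104), where RNA-seq mate 1 of sense fragments gave 50.3%. In the nonoptimal arm the values were 81.3% (13 against 16) and 43.5%, the former from 7 against 13, 2 against 1 and 4 against 2 in replicates 1 to 3, so that it was 200% in each of replicates 2 and 3 and 53.8% in replicate 1. The read names of all 12 libraries carry 1 flow cell lane. Where these reads came from was not tested.

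Alignments shorter than 27 nt gathered at one place. At distances 131 to 170, inside the stretch of low RNA depth, 8, 19 and 1 of them started in the nonoptimal libraries (28 in all) and 0, 10 and 16 in the optimal libraries (26 in all), between distances 139 and 156. They came from fewer reads: 4, 8 and 1 in the nonoptimal and 0, 2 and 5 in the optimal libraries, since a read was placed at several neighbouring starts. The nonoptimal ones were 8, 7 and 1 sense and 0, 12 and 0 antisense, and the optimal ones were 0, 0 and 1 sense and 0, 10 and 15 antisense. The sequence at this place was not used here.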

How the results depend on the processing

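Of 162 recomputed differences or counts, 143 were classed as kept, 4 lost the call, 11 gained it and 4 changed sign. For differences, kept means the same direction and call. For the share of windows whose groups do not overlap, it means only a share of similar size. The calls of the RNA levels over Renilla, of the antisense share, of the firefly against the Renilla 3′ UTR region in RNA and of footprints against RNA within libraries held under each alternative run for them. The RNA level of the 2000 nt over the reading frame lost its call with median depth (0.19) and with GFP as the reference (0.15). The RNA level of the 3′ UTR region over the reading frame changed sign with GFP as the reference (-0.026). Footprint density over the 2000 nt gained a call on both strands (-1.99), without the 5% deepest positions (-1.35), with all alignment lengths (-1.75) and with the replicate block (-1.81, all 3 differences of one sign). Divided by RNA it lost the call with 1 alignment added (-1.68) and with GFP as the reference (-1.91). Leaving out 1 library at a time, the log2 differences ran from -0.019 to 0.15 for the RNA 3′ UTR level over the reading frame, the lowest without nonoptimal replicate 1. They ran from 0.17 to 0.33 for the RNA level of the 2000 nt over the reading frame, from 0.32 to 1.26 for footprints in the 3′ UTR region, from -2.34 to -1.09 for footprints in the 2000 nt, and from 0.34 to 1.116 and from -2.56 to -1.33 for footprints over RNA in these regions. For the 2000 nt against the 3′ UTR region within libraries they ran from -0.0051 to 0.096, with -0.0026 without nonoptimal replicate 2, -0.0051 without optimal replicate 2, and all libraries above 0 without nonoptimal replicate 3. The share of windows whose groups do not overlap ran from 53.8% to 80.8%.

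Same-numbered RNA-seq libraries of the reporters deviated together with r = 0.154, 0.0388 and 0.523 over 26 windows, and not every library was most like its own number, so the numbers were taken not to pair the reporters. Under the replicate block the windows called, here those with all 3 differences of one sign, went from 14 to 18 of 26 (69.2%). Of the single values, only footprint density over the 2000 nt changed its call, which it gained. Alignments wholly inside the 3′ UTR region could not be used for RNA, since reads are longer than it, and median footprint depth was not run. Leaving out distances 101 to 350, footprints counted by 5′ ends and the offset of 1 nt were alternatives added after the data were seen. The depth of footprints, 0 to 6 starts per library in the 2000 nt, limits every comparison of them.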
